A study of Mus musculus with 6 samples.

Results

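The genes described here are 41 chaperone and stress response genes, of which 26 belong to the endoplasmic reticulum (ER) stress response and 15 to the heat shock system. They were taken by gene symbol from a list drawn up with earlier results of these data known, and the rule itself uses no measured value. All 41 were found among the 23282 entries of the count tables, and 39 of them were among the 13771 genes with enough counts to be tested. The study examined how the mouse brain responds to a short period of high-fat feeding. WT C57BL/6J male mice of 8 to 10 weeks were kept for 10 days on normal chow (NCD) or on a high-fat diet (HFD) with 60 kcal% of fat, with no other allele or treatment named. RNA of 1 forebrain hemisphere, freed of olfactory bulb and cerebellum, was sequenced as QuantSeq 3′ libraries, a method that reads the 3′ ends of polyadenylated RNA, in 3 libraries for each diet. Nothing in the labels states that each library is a separate mouse, so the p-values measure the spread between these libraries.

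Proteins that enter the secretory pathway are folded in the ER by Hspa5 (BiP), its cofactors, the lectin chaperones and the protein disulfide isomerases. When unfolded proteins build up there, the sensors IRE1 (Ern1), PERK (Eif2ak3) and ATF6 are released from BiP, and the transcription factors XBP1, ATF4 and ATF6 raise chaperone and degradation genes while PERK slows translation through eIF2. In the cytosol and nucleus, the heat shock factor HSF1 drives the HSP70, HSP90 and small heat shock protein genes after heat or other damage to proteins. Long feeding with fat is known to activate ER stress signalling in the hypothalamus.

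Levels of the chaperone and stress genes on the HFD stayed close to those on the NCD. Of the 14 ER folding members, 12 (85.7%) were slightly higher, with a median log2 fold change of 0.18, against 49.4% and -0.002 over all genes tested. This group joins the ER chaperones, J and small proteins and isomerases, and was formed with earlier results of these data known. Of all 24 ER stress members tested, 17 (70.8%) were higher, with a median of 0.09. In Calr, Hspa5, Pdia3 and Pdia6 (28.6% of the 14) every HFD library was above every NCD library, at unadjusted p-values of 0.0377 to 0.089 in edgeR. Over all genes tested, the diets did not overlap in 8.81%, in either direction. Other ER folding and redox genes, which are not members, were higher in 12 of 19 with a median of 0.04, and 0 of them separated the diets. The 3 genes of ER-associated degradation were each slightly lower, and the heat shock genes were divided between 8 higher and 7 lower with a median of 0.01. None of the 39 genes tested passed an adjusted p of 0.05 in the quasi-likelihood test of edgeR, adjusted by the Benjamini-Hochberg method, and their adjusted p-values lay between 0.979 and 0.997.

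Over the whole table the count of genes with an adjusted p under 0.05 was 0 (0% of 13771) in the same test, against 507 genes (3.68%) at an unadjusted p under 0.05. DESeq2 gave 2 genes with an adjusted p under 0.05 and edgeR without the count filter gave 23, of which 0 were chaperone or stress members. At an unadjusted p under 0.05 there were 2 of the 39 members (5.13%), namely Calr and Sdf2l1. A log2 fold change over 0 was found for 25 of 39 (64.1%), against 49.4% of all genes tested. The diets did not overlap in 6 of 39 (15.4%), 5 higher and 1 lower on the HFD, against 8.81% of all genes tested. Over the members the median of the log2 fold change was 0.04, and over all genes it was -0.00. In RNA of whole tissue, fewer cells of a type and less RNA per cell cannot be told apart.

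**Figure D1:**
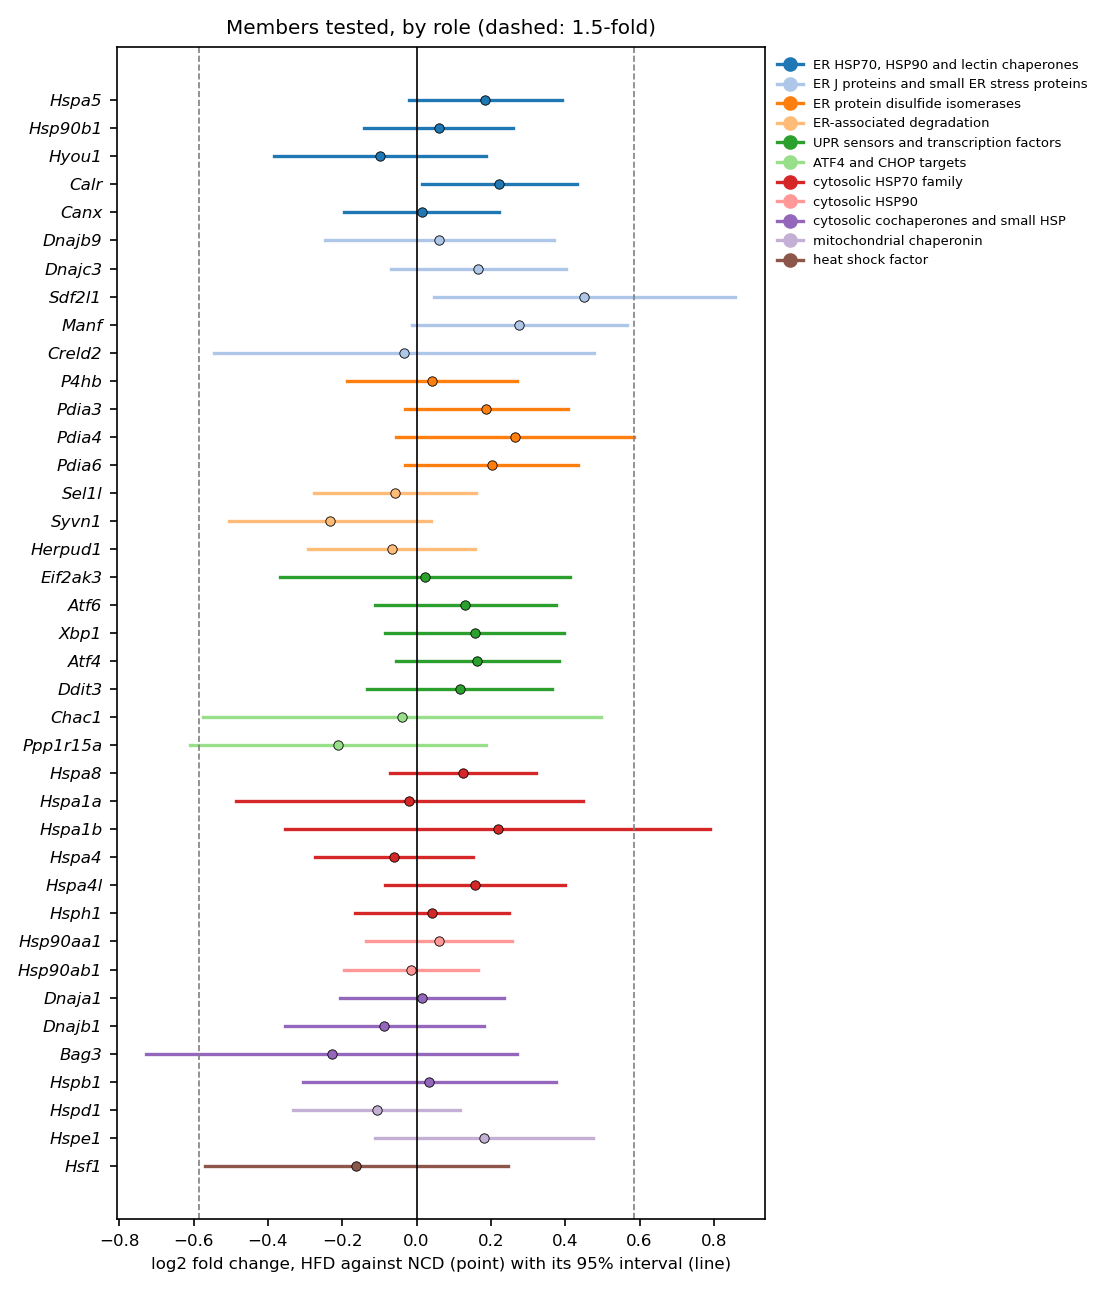
Log2 fold change of the 39 members tested, HFD against NCD (horizontal axis), in the order of their roles (vertical axis, colour). Points are edgeR estimates, lines their 95% intervals and dashed lines a change of 1.5-fold. All but 5 intervals lie inside the dashed lines, and only those of Calr and Sdf2l1 leave out 0.

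The 95% intervals of the fitted changes show what size of difference these libraries leave possible. For 34 of the 39 members (87.2%) the whole interval lay within 1.5-fold in either direction, a log2 value of 0.58, against 62.5% of all genes tested. The 5 exceptions were Sdf2l1, Pdia4, Hspa1b, Ppp1r15a and Bag3, whose standard errors (SE) lay between 0.15 and 0.27 against a median of 0.11 for the members. The median SE over all genes tested was 0.16, and the shares of 87.2% and 62.5% were not matched for level. Within a diet the members had a median SD of 0.11 on the log2 scale, against 0.20 over all genes. It was 0.16 over the 9350 genes with a mean CPM within the members' 10th to 90th percentile. Within that range, genes and members were not matched for level.

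The libraries held between 6842785 and 9689372 counts, and the members together took between 0.811% and 0.852% of them. Levels are in CPM, that is counts divided by a library total corrected with edgeR's TMM method and put on a common scale. The floor of detection was set at a count of 3, or 0.316 to 0.432 CPM by library, for counting error alone. Of the 4 cerebellum markers, which summed to 131 to 152 CPM, Calb1 had 98.0 to 121 CPM, Cbln1 12.7 to 22.9 CPM, Pcp2 9.90 to 20.6 CPM and Gabra6 0 to 0.109 CPM. HFD replicate 3 stood apart. Its chi-square over genes, per degree of freedom, was 14.1 to 18.1 against each other library. NCD replicate 3 stood apart to a lesser degree, at 8.13 to 12.7 against replicates 1 and 2 of either diet. Pairs among those replicates 1 and 2 gave 3.19 to 4.12. HFD replicate 3 also held 1263 CPM over the pituitary hormone genes Gh, Prl, Pomc and Cga, against 4.18 to 13.2 CPM elsewhere. The 5 erythrocyte markers summed to 544 to 825 CPM on the HFD and 421 to 519 CPM on the NCD, and the 4 neuron markers to 4128 to 4209 and 4255 to 4416 CPM. Taken singly, 0 of the 4 neuron markers separated the diets. Snap25 had a log2 fold change of 0.05, and Syt1, Slc17a7 and Gad1 had -0.12, -0.04 and -0.19. For the 4 liver markers the sums were 5.09 to 9.62 CPM on the HFD and 9.48 to 45.5 CPM on the NCD, which overlapped, as did the lists of astrocytes, oligodendrocytes, microglia, endothelium, choroid plexus and ependyma. The part of these differences in the values of the chaperone genes was not tested, and values without HFD replicate 3 are given where they differ in direction or most in size.

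Hspa5, on chromosome 2 from 34771970 to 34777547 of GRCm38, encodes BiP, the HSP70 of the ER and the customary gauge of ER stress. It had 376, 358 and 388 CPM in the NCD libraries and 400, 426 and 450 CPM in the HFD libraries. Every HFD library was above every NCD library, by a small margin between NCD replicate 3 and HFD replicate 1. This was a log2 fold change of 0.19 (SE 0.10, 95% interval -0.02 to 0.39, unadjusted p = 0.073 in edgeR). Without HFD replicate 3 it was 0.14.

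Calr, on chromosome 8 from 84841850 to 84846934, encodes calreticulin, a calcium-binding lectin chaperone that holds newly made glycoproteins. Its level was 293, 278 and 275 CPM on the NCD and 305, 337 and 345 CPM on the HFD. Again the 3 HFD libraries lay above the 3 NCD libraries. In the fit its log2 fold change was 0.22 (SE 0.10, 95% interval 0.01 to 0.43, unadjusted p = 0.0377 in edgeR), and 0.19 (unadjusted p = 0.0407) without HFD replicate 3. Leaving out NCD replicate 1, 2 or 3 or HFD replicate 2 gave unadjusted p-values of 0.0625 to 0.114.

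The remaining large chaperones of the ER did not separate the diets. Hsp90b1 encodes GRP94, the HSP90 of the ER, and had 378, 386 and 369 CPM on the NCD and 373, 402 and 405 CPM on the HFD. Its libraries overlapped, with a log2 fold change of 0.06 (95% interval -0.14 to 0.26). Canx, which encodes the membrane-bound partner of calreticulin, had a log2 fold change of 0.01 and a range of 308 to 347 CPM over all libraries. Hyou1, an ER chaperone related to HSP110 that releases nucleotide from BiP, ran from 32.9 to 42.7 CPM with a log2 fold change of -0.10. Summed over these 5 genes, the NCD libraries held 1381 to 1421 CPM and the HFD libraries 1422 to 1580 CPM.

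Promoters of several of these genes carry the ER stress element (ERSE), a known binding site of ATF6 with NF-Y that was searched for as CCAAT, any 9 bases and CCACG on both strands. RefSeq promoters of GRCm38.p6, from 250 bases before to 50 bases after the start, were matched for 34 of the 41 members. An ERSE was found in 8 of the 34 (23.5%), namely Hspa5, Hsp90b1, Calr, Canx, Dnajc3, Creld2, Pdia6 and Syvn1, against 37 of all 27018 genes with such a promoter (0.137%). The sequences below are written 5′ to 3′ on the strand of the gene, with the ERSE in capitals. They are those of the 4 ERSE genes whose libraries did not overlap between the diets, and so were picked by their values. A link between the element and the diet was not tested. In Calr the element reads in the opposite direction. The stretch of Hspa5 is shorter because a GENCODE transcript of that gene starts before it. The 4 stretches lie at chr2:34772020-34772048 on the plus strand for Hspa5, chr8:84847035-84847133 on the minus strand for Calr, chr12:17266451-17266549 on the plus strand for Pdia6 and chr19:6046492-6046590 on the plus strand for Syvn1.
Hspa5: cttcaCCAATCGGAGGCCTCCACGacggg
Calr: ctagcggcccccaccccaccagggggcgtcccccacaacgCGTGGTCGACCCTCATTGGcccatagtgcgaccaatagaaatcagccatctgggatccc
Pdia6: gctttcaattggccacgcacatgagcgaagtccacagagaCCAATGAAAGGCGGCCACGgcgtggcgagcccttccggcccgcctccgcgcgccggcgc
Syvn1: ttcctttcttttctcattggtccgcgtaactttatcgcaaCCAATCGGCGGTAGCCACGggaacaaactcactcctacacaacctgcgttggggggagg

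The first base of the element stood 65 bases before the RefSeq start of Hspa5, 162 before that of Calr, 98 before that of Pdia6 and 44 before that of Syvn1. Of the 8 members with an ERSE, 6 (75%) had a log2 fold change over 0, against 49.4% of all genes tested, and the median was 0.11. Hspa5, Calr and Pdia6 were higher on the HFD in every library, and Syvn1, which also holds the element, was lower in every library. The diets overlapped for Hsp90b1, Canx, Dnajc3 and Creld2, with log2 fold changes of 0.06, 0.01, 0.17 and -0.03. They did not overlap in 4 of the 8 (50%), against 8.81% of all genes tested. The match is a description of the letters in this window and does not show that a factor was bound there.

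**Figure D2:**
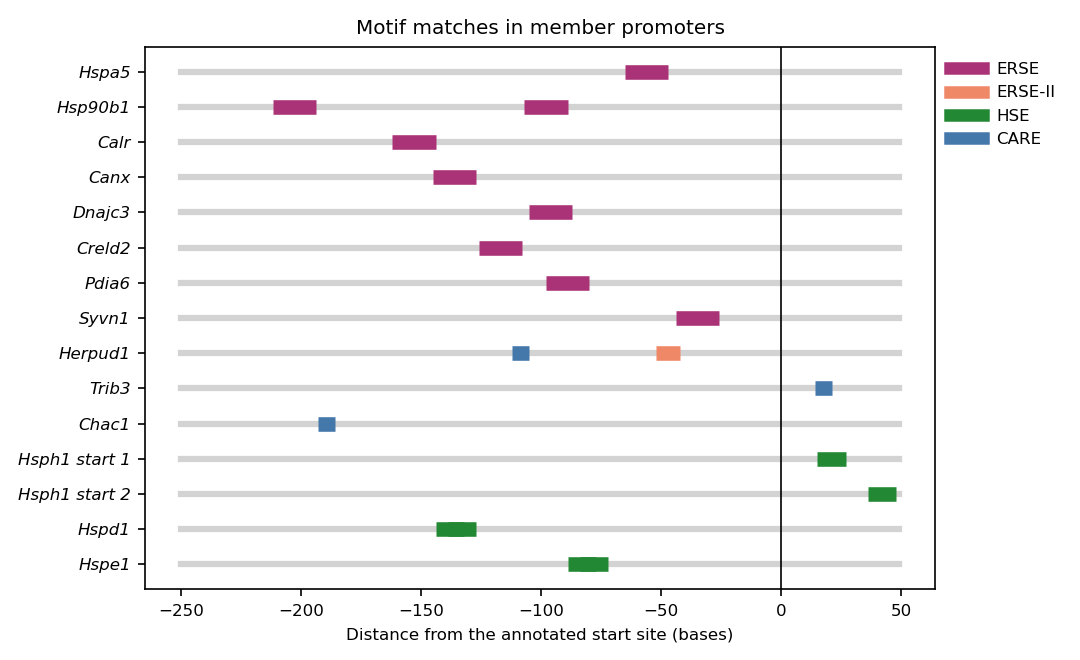
Motif matches in the promoters of the members that hold any (vertical axis) by distance from the RefSeq start in bases (horizontal axis, 0 is the start). Grey lines are the promoters searched, from 250 bases before to 50 bases after the start, and coloured blocks are matches. The ERSE blocks of 8 genes lie between 212 and 26 bases before the start.

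Among the ER J proteins and small ER stress proteins, 4 of 5 were higher on the HFD by log2 fold change and 0 of 5 separated the diets. Sdf2l1, which encodes a small ER protein found with the J protein Dnajb11 in chaperone complexes, had 11.8, 11.7 and 11.1 CPM on the NCD and 11.7, 16.4 and 19.1 CPM on the HFD. The NCD counts behind these were 96, 108 and 105, and the HFD counts were 81, 150 and 139. The higher level rested on HFD replicates 2 and 3, while HFD replicate 1 lay within the range of the NCD. Sdf2l1 had a log2 fold change of 0.45 (SE 0.19, 95% interval 0.05 to 0.86, unadjusted p = 0.0314 in edgeR), the largest of the members tested. Without HFD replicate 3 it was 0.30 (unadjusted p = 0.146), and without HFD replicate 1 it was 0.62 (unadjusted p = 0.00446). Leaving out any of the other libraries gave unadjusted p-values of 0.0532 to 0.0848.

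Manf encodes a secreted ER stress protein with neurotrophic activity. Its level was 39.8, 32.7 and 43.5 CPM on the NCD and 44.8, 43.1 and 52.8 CPM on the HFD. NCD replicate 3 lay above HFD replicate 2, so the diets overlapped. Manf had a log2 fold change of 0.28 (SE 0.14, 95% interval -0.01 to 0.57), with an unadjusted p of 0.0593 in edgeR, and 0.18 without HFD replicate 3.

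Dnajc3, a J protein of the ER that also restrains eIF2 kinases, had a log2 fold change of 0.17 (95% interval -0.07 to 0.40). That of Dnajb9, a J protein that serves BiP and ER-associated degradation, was 0.06 (95% interval -0.25 to 0.37). For Creld2, a disulfide isomerase-like gene of the ATF6 response with 48 to 90 counts per library, it was -0.03 with the wide interval of -0.55 to 0.48.

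The protein disulfide isomerases form and rearrange disulfide bonds in the ER, and all 4 had a log2 fold change over 0 with a median of 0.20. Pdia3 (ERp57), which works with calreticulin and calnexin on glycoproteins, had 85.7, 90.7 and 93.5 CPM on the NCD and 103, 96.4 and 109 CPM on the HFD. Its HFD libraries lay above the NCD libraries, with a log2 fold change of 0.19 (SE 0.10, 95% interval -0.03 to 0.41, unadjusted p = 0.089 in edgeR). Pdia6 (P5), an isomerase that binds BiP, had 101, 99.6 and 87.2 CPM on the NCD and 105, 106 and 120 CPM on the HFD. Here too the diets did not overlap, with a log2 fold change of 0.20 (SE 0.11, 95% interval -0.03 to 0.43, unadjusted p = 0.0833 in edgeR). Without HFD replicate 3 the log2 fold change was 0.14 for either gene. Without NCD replicate 3 it was 0.22 for Pdia3 and 0.14 for Pdia6.

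P4hb, the archetypal isomerase PDI, was steady in every library at 55.6, 60.1 and 57.2 CPM on the NCD and 59.2, 58.5 and 60.2 CPM on the HFD. Its log2 fold change was 0.04 (95% interval -0.19 to 0.27). Pdia4 (ERp72) had the larger value of 0.27 but a wide interval of -0.05 to 0.59, and NCD replicate 1 at 32.6 CPM lay among the HFD libraries. Without NCD replicate 1 the log2 fold change of Pdia4 was 0.43 (unadjusted p = 0.0153 in edgeR).

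**Figure D3:**
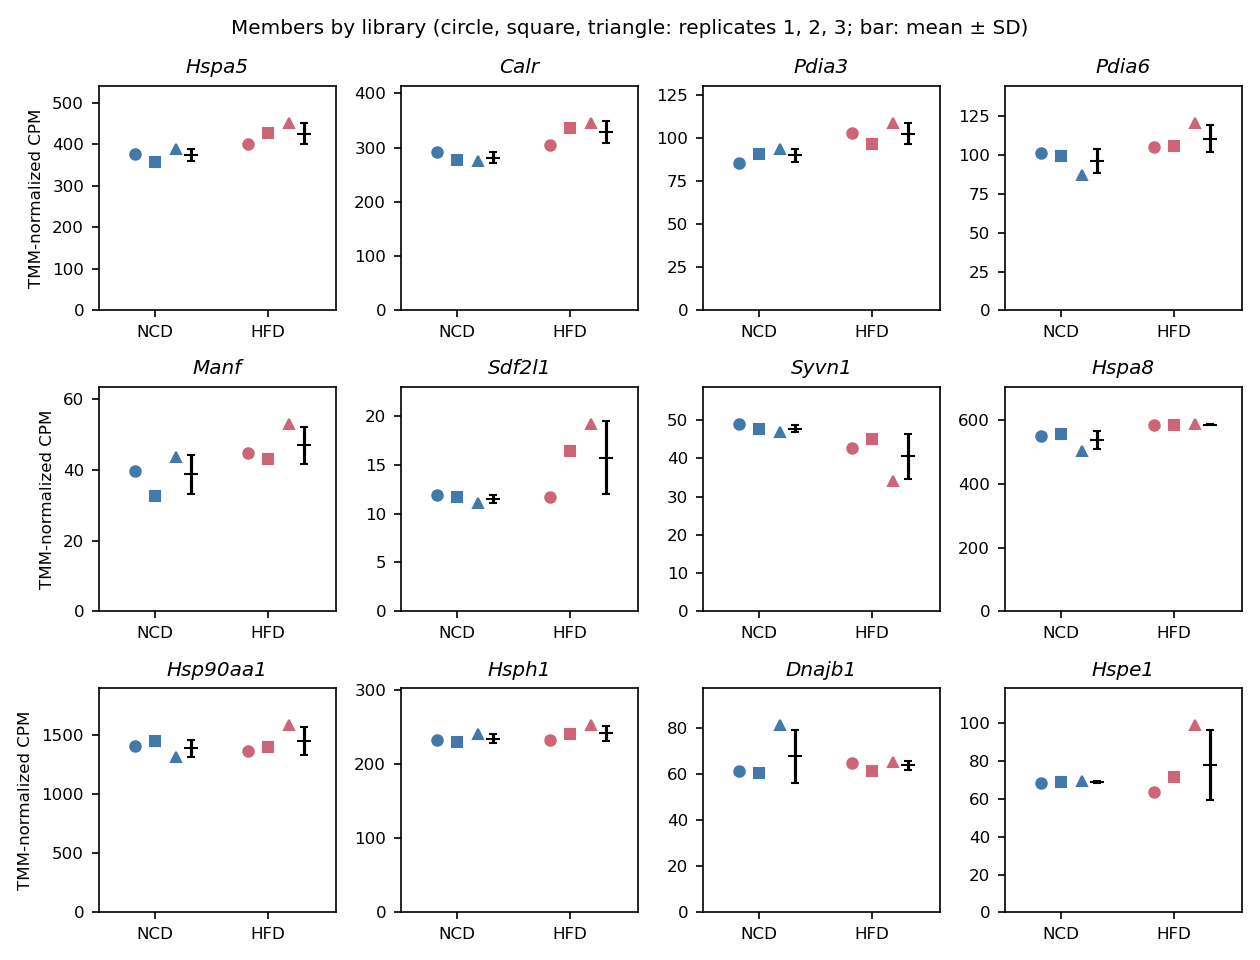
Level in CPM (vertical axes, from 0) of 12 members in the 3 NCD and 3 HFD libraries (horizontal axes). Circles, squares and triangles are replicates 1, 2 and 3, and bars show the mean ± SD of each diet. The diets do not overlap for Hspa5, Calr, Pdia3, Pdia6, Syvn1 and Hspa8. These are all 6 of the 39 members tested (15.4%) whose diets do not overlap, against 8.81% of all genes tested. The 12 genes are therefore not typical of the members. HFD replicate 3 is the highest library for every gene shown except Dnajb1 and Syvn1, and for Syvn1 it is the lowest.

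ER-associated degradation returns misfolded proteins to the cytosol for the proteasome, and its 3 members all had a log2 fold change under 0. Syvn1 encodes HRD1, the ubiquitin ligase at the centre of that machinery, and had 48.9, 47.6 and 46.9 CPM on the NCD and 42.8, 45.02 and 34.0 CPM on the HFD. Every HFD library lay below every NCD library, with HFD replicate 3 far below the rest. For Syvn1 the log2 fold change was -0.23 (SE 0.13, 95% interval -0.51 to 0.04, unadjusted p = 0.0885 in edgeR) and -0.12 without HFD replicate 3. Syvn1 shares 91 exon bases with Mrpl49 on the opposite strand, and the use of strand in the counting is not given in the sources used here.

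Herpud1 encodes a membrane protein that gathers the degradation complex and is a sensitive target of ER stress. Its level was 68.1, 68.3 and 72.4 CPM on the NCD and 63.3, 68.8 and 67.1 CPM on the HFD, which overlapped, with a log2 fold change of -0.07 (95% interval -0.29 to 0.16). It was the only member with the ERSE-II, searched for as ATTGG, any base and CCACG, which 12 of 27018 genes hold (0.0444%). It is shown in capitals, at chr8:94386337-94386427 on the plus strand, because this variant of the element is known to bind both ATF6 and XBP1.
Herpud1: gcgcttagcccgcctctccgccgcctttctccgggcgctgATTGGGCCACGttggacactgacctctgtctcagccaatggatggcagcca

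Sel1l, the partner of HRD1 that passes substrates to it, had 168 to 199 CPM over all libraries and a log2 fold change of -0.06. Summed over the 3 degradation genes the diets overlapped, at 296 to 318 CPM on the NCD and 269 to 301 CPM on the HFD.

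Of the sensors and transcription factors, 5 of 6 were tested and all 5 had a log2 fold change over 0, with a median of 0.13 and 0 at an unadjusted p under 0.05. Ern1, which encodes IRE1, was near the floor, with NCD counts of 4, 2 and 2 and HFD counts of 1, 1 and 0. These were too low to test, and all but 1 of the 6 lay under the floor of 3. Eif2ak3, which encodes PERK, had 15.7 to 18.3 CPM on the NCD and 13.8 to 22.7 CPM on the HFD, with a log2 fold change of 0.02 (95% interval -0.37 to 0.41). Without HFD replicate 1, the library with the highest level, that value was -0.20, and without HFD replicate 3, the lowest, it was 0.16. Atf6 had a log2 fold change of 0.13 (95% interval -0.11 to 0.37).

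Xbp1, whose mRNA is spliced by IRE1 into the active form, had 54.4, 56.2 and 56.7 CPM on the NCD and 65.8, 55.6 and 65.4 CPM on the HFD. HFD replicate 2 lay within the NCD range, and the log2 fold change was 0.16 (SE 0.11 and unadjusted p = 0.186 in edgeR). Counts at the 3′ end do not tell the spliced and unspliced forms apart. Atf4, the transcription factor translated when eIF2 is phosphorylated, had 196, 220 and 204 CPM on the NCD and 219.8, 225 and 250.1 CPM on the HFD. The lowest HFD library lay just under the highest NCD library, and the log2 fold change was 0.16 (SE 0.10 and unadjusted p = 0.133 in edgeR).

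Ddit3 encodes CHOP, the transcription factor tied to cell death under lasting ER stress. Its level was 52.8, 51.5 and 50.7 CPM on the NCD and 51.8, 53.1 and 63.1 CPM on the HFD. HFD replicate 3 alone stood above the other 5 libraries. Ddit3 had a log2 fold change of 0.12 (95% interval -0.13 to 0.37) and 0.02 without that library. Exons of Ddit3 share 68 bases with Mars on the opposite strand.

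The genes that ATF4 and CHOP are known to drive gave no common direction. Ppp1r15a, which encodes GADD34, the phosphatase subunit that restores eIF2, had 12.5, 10.1 and 12.8 CPM on the NCD and 11.1, 9.73 and 9.76 CPM on the HFD. The libraries overlapped, with a log2 fold change of -0.21 (95% interval -0.61 to 0.19). Chac1, a glutathione-degrading enzyme, had 37 to 61 counts per library and a log2 fold change of -0.04 (95% interval -0.57 to 0.50). Trib3, a pseudokinase that inhibits AKT, had NCD counts of 4, 5 and 7 and HFD counts of 8, 7 and 13. In CPM the HFD libraries of Trib3 lay above the NCD libraries, at 0.765 to 1.79 against 0.494 to 0.738, but the counts did not pass the filter. Fitted without the filter, its log2 fold change was 1.02 with an SE of 0.74.

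The ATF4 site CARE was searched for as TGATGNAA on both strands and was found in Herpud1, Trib3 and Chac1, and in 4.51% of all genes with a promoter. The XBP1 site UPRE, searched for as TGACGTGG, was found in 0 of 34 members and in 0.714% of all genes.

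**Figure D4:**
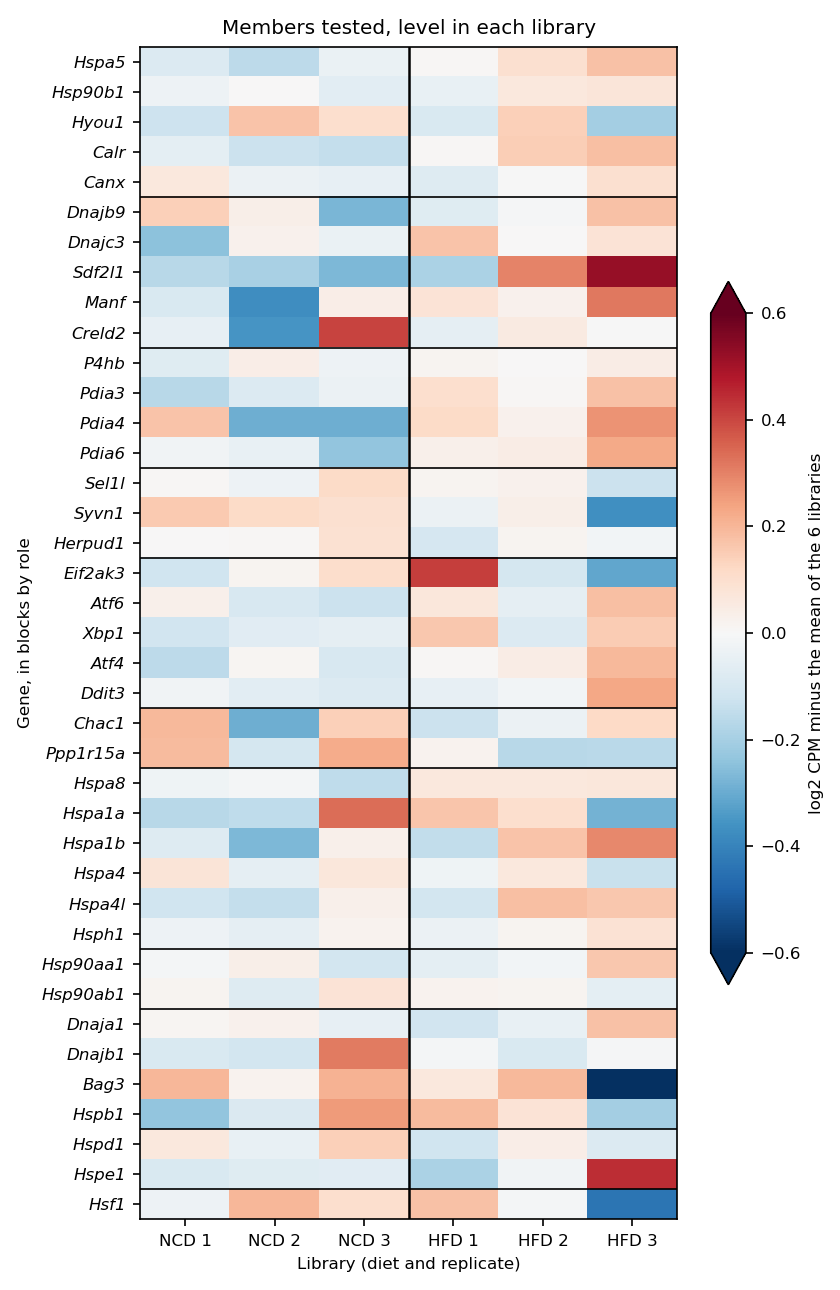
Level of the 39 members tested (rows, in blocks by role) in each library (columns), as log2 CPM minus the mean of the 6 libraries. Red is above and blue below that mean, and the colour bar extends past 0.6 in either direction. The ER folding genes of the first 3 blocks are mostly red in HFD replicate 3, and in the heat shock blocks Hspa8 alone splits by diet.

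In the cytosolic HSP70 family, 4 of 6 genes had a log2 fold change over 0 and 0 of 6 had an unadjusted p under 0.05. Hspa8 encodes HSC70, the constitutive HSP70 of neurons that also uncoats clathrin vesicles, and had 551, 556 and 504 CPM on the NCD and 585, 585 and 587 CPM on the HFD. Its HFD libraries were nearly equal and lay above the NCD libraries. For Hspa8 the log2 fold change was 0.12 (SE 0.09, 95% interval -0.07 to 0.32, unadjusted p = 0.196 in edgeR). Of the 75-base stretches at the 3′ ends of Hspa8 transcripts, 65.4% also occur in other annotated genes, so reads counted from multiple alignments could belong to its pseudogenes.

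Hspa1a and Hspa1b, the heat-inducible HSP70 genes that neighbour each other on chromosome 17, were low in every library. Hspa1a had 7.90, 7.98 and 11.2 CPM on the NCD and 9.93, 9.51 and 7.29 CPM on the HFD. For Hspa1b the levels were 4.69, 4.10 and 5.06 CPM on the NCD and 4.46, 5.57 and 6.05 CPM on the HFD. Both overlapped between the diets, with log2 fold changes of -0.02 (95% interval -0.49 to 0.45) and 0.22 (95% interval -0.35 to 0.79). The last 500 bases of their transcripts share no 75-base stretch with each other or with another gene.

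Hsph1, which encodes HSP110, a nucleotide exchange factor for HSP70, had 233, 230.0 and 242 CPM on the NCD and 233, 241 and 253 CPM on the HFD. Its log2 fold change was 0.04 (95% interval -0.16 to 0.25). Hspa4 and Hspa4l, further members of the HSP110 branch, had log2 fold changes of -0.06 and 0.16.

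The cytosolic HSP90 genes were the most highly counted members, and neither separated the diets. Hsp90aa1, the inducible form, had 1403, 1452 and 1310 CPM on the NCD and 1361, 1399 and 1581 CPM on the HFD. Hsp90ab1, the constitutive form, had 2502, 2342 and 2620 CPM on the NCD and 2506, 2504 and 2375 CPM on the HFD. Their log2 fold changes were 0.06 (95% interval -0.14 to 0.26) and -0.02 (95% interval -0.20 to 0.16), and the highest library was HFD replicate 3 for one and NCD replicate 3 for the other.

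Dnajb1 encodes HSP40, the J protein that delivers clients to HSP70 and is strongly heat-inducible. It had 61.4, 60.6 and 81.2 CPM on the NCD and 64.9, 61.5 and 65.2 CPM on the HFD. NCD replicate 3 stood above the other 5 libraries, and the log2 fold change of -0.09 (95% interval -0.35 to 0.18) became 0.07 without it. Dnaja1, a further J protein of the cytosol, had a log2 fold change of 0.01, and 61.1% of the 75-base stretches at its 3′ ends occur in other genes. Bag3, a cochaperone of HSP70 in autophagy, had a log2 fold change of -0.23 (95% interval -0.73 to 0.27), which was -0.01 without HFD replicate 3. The small heat shock protein gene Hspb1 (HSP25) had 0.03 (95% interval -0.31 to 0.37).

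Hspd1 and Hspe1 encode HSP60 and HSP10, the chaperonin and its lid in mitochondria, and are transcribed in opposite directions from a shared promoter on chromosome 1. Hspd1 had 130.0, 121 and 138 CPM on the NCD and 115, 128 and 117 CPM on the HFD, with a log2 fold change of -0.11 (95% interval -0.33 to 0.12). Hspe1 had 68.3, 69.1 and 69.3 CPM on the NCD and 63.8, 71.8 and 99.0 CPM on the HFD, with a log2 fold change of 0.18 (95% interval -0.11 to 0.48). The level of Hspe1 in HFD replicate 3 lay far above the other 5 libraries, while that of Hspd1 in the same library did not. Without that library the log2 fold change of Hspe1 was -0.02. Of the 75-base stretches at their 3′ ends, 22.1% for Hspd1 and 39% for Hspe1 occur in other annotated genes.

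The promoter between the pair holds a heat shock element (HSE), the site of HSF1, searched for as 3 units of NGAAN in alternating direction on both strands. The same search found an HSE in 3 of 34 members (8.82%), with Hsph1 as the other one, against 0.663% of all genes. The element is shown in capitals on the strand of Hspe1, at chr1:55088054-55088081, because of its place between the pair. It begins 89 bases before the RefSeq start of Hspe1 and 144 bases before the inner RefSeq start of Hspd1, but after the outer start of Hspd1, so it lies within an annotated exon of that gene.
Hspe1: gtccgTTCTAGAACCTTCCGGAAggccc

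Hsf1 itself had 11.9, 13.9 and 13.0 CPM on the NCD and 13.7, 12.02 and 8.94 CPM on the HFD. HFD replicate 3 was the lowest library and the others overlapped. Hsf1 had a log2 fold change of -0.16 (95% interval -0.57 to 0.25) and -0.01 without HFD replicate 3.

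Summed CPM describe the sets by library and follow the most counted genes of each set. The 26 ER stress members together had 2523 to 2550 CPM on the NCD and 2628 to 2842 CPM on the HFD, which did not overlap. The 14 ER folding members, that is the chaperones, J and small proteins and isomerases, had 1810 to 1850 and 1898 to 2097 CPM. The 15 heat shock members overlapped, at 5583 to 5745 and 5665 to 5857 CPM. Within them the cytosolic HSP90 genes held 3794 to 3956 CPM and overlapped, while the cytosolic HSP70 family did not overlap, at 1169 to 1198 CPM on the NCD and 1211 to 1255 CPM on the HFD. Of the 6 genes of that family only 1 (16.7%) separated the diets by itself, against 8.81% of all genes tested. This was Hspa8, the most counted of them, at 504 to 556 CPM on the NCD and 585 to 587 CPM on the HFD.

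HFD replicate 3, the library with the pituitary hormone RNA, was also the library in which the ER folding genes were highest. It was the highest of the 6 libraries for 11 of the 14 (78.6%) and for 20 of the 39 members (51.3%), against 26.2% of all genes tested. Without it, the ER folding genes had a median log2 fold change of 0.14 and 10 of 14 were above 0, and over all members the median was 0.02 with 22 above and 17 below 0. The fitted direction turned without this library for some members near 0, with log2 fold changes of -0.03 for Canx, -0.01 for Dnajb9, -0.01 for Hsp90aa1, -0.08 for Dnaja1, 0.01 for Hsp90ab1 and 0.10 for Hspa1a. The heat shock members had a median of -0.01 when scaled by library size alone, and over the fits that left out 1 library its lowest value was -0.03 (HFD replicate 1 left out) and its highest 0.06 (NCD replicate 3 left out).

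Other genes of the same pathways, 132 in 11 lists chosen by function, were set beside the members. Of the 123 tested, 66 were higher and 57 lower by log2 fold change, with a median of 0.02, and 4 (3.25%) had an unadjusted p under 0.05, near the 3.68% of all genes. The diets did not overlap in 8 (6.5%), 2 higher and 6 lower, against 8.81% of all genes tested. Other ER folding and redox genes, such as the oxidase Ero1l, were higher in 12 of 19 with a median of 0.04, and other degradation and translocon genes in 9 of 17 with the same median. Other ATF4 targets were higher in 7 of 15 with a median of -0.01. The cytosolic chaperonin TRiC, which folds actin and tubulin, was higher in 6 of 8 with a median of 0.04, and the other HSP cochaperones in 12 of 16 with 0.06. Other HSP70, HSP110 and J protein genes were higher in 6 of 15, small HSP genes in 3 of 4, mitochondrial chaperones and proteases in 5 of 10, other heat shock factors in 1 of 2, and other regulators of the UPR and eIF2 in 5 of 15.

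Of those lists, the genes with an unadjusted p under 0.05 were Atf6b, Ppp1r15b, Yme1l1 and Cirbp. Atf6b, a paralog of ATF6 that is cleaved in the same way but activates weakly, had 62.8, 56.9 and 70.4 CPM on the NCD and 49.95, 53.0 and 46.6 CPM on the HFD. All HFD libraries of Atf6b were lower, and its log2 fold change was -0.34 (SE 0.12 and unadjusted p = 0.0106, adjusted p = 0.979 in edgeR). Without NCD replicate 3 it was -0.26 (unadjusted p = 0.0535). Ppp1r15b, the constitutive eIF2 phosphatase subunit, had 160, 171 and 104 CPM on the NCD and 167, 184 and 191 CPM on the HFD. Its log2 fold change of 0.32 (unadjusted p = 0.0478 in edgeR) rested on the low NCD replicate 3, without which it was 0.13 (unadjusted p = 0.28), and the unadjusted p was also over 0.05 without HFD replicate 2 (0.102) or 3 (0.0828). Yme1l1, a protease of the inner mitochondrial membrane, had 57.8, 53.1 and 52.0 CPM on the NCD and 56.1, 71.5 and 68.7 CPM on the HFD. The diets overlapped there, with a log2 fold change of 0.27 (unadjusted p = 0.0381 in edgeR) whose unadjusted p was 0.0625 to 0.179 without NCD replicate 2 or 3 or HFD replicate 2 or 3.

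The RNA of the cold-inducible RNA-binding proteins is known to fall when temperature rises, so both were set beside the heat shock genes. Cirbp had 83.1, 91.1 and 69.3 CPM on the NCD and 57.7, 68.8 and 64.8 CPM on the HFD. The HFD libraries were all lower, though NCD replicate 3 and HFD replicate 2 nearly met. For Cirbp the log2 fold change was -0.35 (SE 0.12 and unadjusted p = 0.0124, adjusted p = 0.979 in edgeR). Leaving out NCD replicate 2 gave an unadjusted p of 0.0879, and leaving out HFD replicate 1 gave 0.0627. Rbm3 had 27.3, 25.8 and 16.7 CPM on the NCD and 20.3, 22.0 and 21.5 CPM on the HFD, which overlapped, with a log2 fold change of -0.12 (95% interval -0.49 to 0.24).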

How the data were processed

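The authors prepared QuantSeq 3′ libraries from 500 ng of total RNA, sequenced 75-base single-end reads, trimmed adaptors, aligned with Bowtie2 to mm10 and counted unique and multiple alignments with Bedtools. The deposited values are whole-number read counts per gene symbol and library, without normalization. Tool versions, annotation and use of strand are not given in the sources used here. Multiple alignments can credit 1 read to a gene and its pseudogenes.

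The analysis used edgeR 4.0.16 in R 4.3.3 (filterByExpr, minimum count 10, minimum total 15; TMM; glmQLFit and glmQLFTest, diet only, two-sided, Benjamini-Hochberg over all 13771 genes). The common biological coefficient of variation was 0.126. CPM used TMM library sizes. Standard errors are the log2 fold change over the square root of F. With 3 libraries against 3, an exact permutation test of 1 gene cannot go below a p of 0.1. The test was tested on simulated counts with 200 genes changed 2-fold and recovered 88.5% of them, with 9 false calls. Those counts had the same coefficient of variation for every gene and no outlying library. The largest log2 fold change of a member tested was 0.45, so the recovery does not cover changes of the size seen here.

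The members, lists and tests were chosen with earlier results of these data known. Every member is accounted for by role. Leading members of each role, members with an unadjusted p under 0.05 and those whose diets do not overlap are given in every library. Of the other pathway genes, those with an unadjusted p under 0.05 are named, and Cirbp and Rbm3 are given in any case.

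Positions and shared 3′ sequence came from GENCODE vM21, and promoters from RefSeq (GRCm38.p6). Hyou1, Manf, Atf6, Hspa8, Hsp90aa1, Hsp90ab1 and Hsf1 had no entry. Alternatives were DESeq2 1.42.0, other scalings, quantile normalization with limma 3.58.1, other filters, leaving out single libraries, a replicate block and robust estimation. Python 3.11.15, pandas 2.3.3 and matplotlib 3.10.9 were used for sequences and plots. The result of 1 marker list is not reported here.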

Additional observations from a re-analysis of the deposited data

How the results depend on the processing

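The median log2 fold change of the members (0.04) and the number above 0 (25 of 39) kept their direction under all alternatives, at 0.02 to 0.05 and 23 to 26 with other tools, scalings and filters. Leaving out single libraries, the median ran from 0.02 to 0.08 and the number above 0 from 22 to 27. The number of members with an unadjusted p under 0.05, 2 in the results above, was 1 with library size alone and 0 with quantile normalization and limma, and ran from 0 to 3 with each library left out. It was 0 without NCD replicate 2 or HFD replicate 2 and 3 without HFD replicate 1. The cause was not tested. The unadjusted p of Calr was 0.0552 with library size alone, 0.11 with quantile normalization and 0.0631 with the replicate block, and that of Sdf2l1 0.0615 with quantile normalization. No member had an adjusted p under 0.05 under any alternative, and the lowest was 0.839.

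Libraries share replicate numbers between the diets, but deviations of same-numbered libraries from their diet means were correlated at -0.03, 0.05 and -0.06 over genes, so the numbers were not taken as pairs. With the replicate block, 2 members had an unadjusted p under 0.05 (Sdf2l1 and Manf), the median was 0.04 and 25 were above 0, and over all genes 371 instead of 507 had an unadjusted p under 0.05. Of 3 libraries a diet, single outlying values could not be tested. Counting error limits the genes under about 10 CPM, among them Creld2, Chac1, Hspa1a, Hspa1b and Bag3.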
